A study of Mus musculus with 7 samples.

Results

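Matrix metalloproteinases, their tissue inhibitors and lysyl oxidase were followed across the cells of 7 mouse mammary tumors. The members were the 10 rows named Mmp2, Mmp3, Mmp9, Mmp11, Mmp13, Mmp14, Timp1, Timp2, Timp3 and Lox among the 33710 rows left after mitochondrial genes were dropped, and they were picked by name. Each tumor came from a control mouse of the genotype MMTV-PyMT; HK2 f/f and gave 1 Drop-seq library. Drop-seq captures single cells in droplets on barcoded beads and counts each captured mRNA once by its unique molecular identifier (UMI). The MMTV promoter drives the polyoma middle T oncogene (PYMT) in mammary epithelium, and the floxed alleles of hexokinase 2 (HK2) stayed intact because these mice lacked the tamoxifen-activated Cre. The mice were on a C57BL/6 background and received tamoxifen once a tumor was palpable. The labels give tumor collection 3 months after a palpable tumor had developed. All 7 mice form 1 group, called replicates 1, 2, 3, 4, 5, 7 and 8 after the sample titles. Replicates 1 to 4 carry one title suffix (CB) and 5, 7 and 8 another prefix (WT). The labels give the genotype of all 7 as wild type, so CB and WT stand here for titles and not for genotypes. The comparisons below are therefore between cell classes within the same tumors, and each library is 1 mouse.

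Metalloproteinases are zinc-dependent enzymes that cut extracellular matrix and cell-surface proteins. Most are secreted as inactive proenzymes, whereas the product of Mmp14 sits in the plasma membrane and can activate the product of Mmp2. The Timp proteins bind active metalloproteinases and block them, and the Timp2 protein also takes part in the activation of the Mmp2 proenzyme at the cell surface. Lysyl oxidase crosslinks collagen and elastin and so acts on the matrix that the proteinases degrade. In mammary tumors these genes are known from both stromal and epithelial cells, and the comparisons ask which cells held each mRNA.

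After barcodes with 200 to 6000 genes were kept, 15047 cells remained, 1133 to 4780 per mouse, with 962677 to 4471473 UMIs per mouse and a median of 527 to 694 UMIs per cell. Only 5 barcodes occurred in more than 1 library, and none of these had identical counts. Cells were placed in 7 classes from marker genes that include no member, which assigned 10981 cells (73.0%), left 3544 (23.6%) unassigned and put 522 in 5 other classes. The classes held 5648 tumor, 984 hormone-sensing, 85 myoepithelial, 892 fibroblast, 101 endothelial, 1765 macrophage and 1506 T/NK cells. UMIs were summed per mouse and class wherever a mouse had at least 10 such cells, which gave 7 sums for tumor, hormone-sensing, fibroblast and macrophage cells, 6 for T/NK, 4 for myoepithelial and 3 for endothelial cells. Genes not used for the assignment were highest in the class they mark for all of those checked except Thy1, a T cell gene that was higher in fibroblasts. Levels are given as UMIs of the gene per 1000000 UMIs of the sum (CPM). A UMI stands for 1 captured molecule, so levels are not divided by gene length.

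The members lie on 8 chromosomes of the mouse genome (GRCm38 coordinates, GENCODE M21), and all 10 are protein-coding. The genes Mmp3 (chromosome 9, 7445822 to 7455975) and Mmp13 (chromosome 9, 7272514 to 7283331) sit in the same cluster on the plus strand. Mmp2 lies on chromosome 8, 92827291 to 92853420, Mmp9 on chromosome 2, 164940780 to 164955850, and Mmp14 on chromosome 14, 54431612 to 54445364, all on the plus strand. Mmp11 (chromosome 10, 75923222 to 75936496, minus strand) shares exonic sequence with Chchd10 on the other strand. Timp1 lies on the X chromosome, 20870166 to 20874735, plus strand, and Timp2 on chromosome 11, 118301069 to 118355740, minus strand. Timp3 (chromosome 10, 86300372 to 86349506, plus strand) shares exonic sequence with Syn3 on the other strand, and Lox, on the minus strand of its chromosome, shares it with AC161119.1. The strand setting of the counting is not given in the sources used here, so reads of these overlapping pairs may not have been separated.

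The promoters of 4 members are shown to set beside the classes that held each mRNA: Mmp3, Timp1 and Mmp14 had their highest mean level in fibroblasts and Mmp13 in macrophages, and the UMIs of Mmp14 were spread over several classes. Each line gives the 120 bases before the RefSeq start (build GRCm38.p6, plus strand, 5′ to 3′). Capitals mark the AP-1 motif TGANTCA, bound by Fos and Jun dimers, and the TATA motif TATAAA, each searched on both strands. The windows are chr9:7445702-7445821, chr9:7272394-7272513, chr14:54431478-54431597 and chrX:20870046-20870165, in this order.
Mmp3: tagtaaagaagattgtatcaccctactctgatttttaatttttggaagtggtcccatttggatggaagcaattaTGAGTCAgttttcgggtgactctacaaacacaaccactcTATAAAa
Mmp13: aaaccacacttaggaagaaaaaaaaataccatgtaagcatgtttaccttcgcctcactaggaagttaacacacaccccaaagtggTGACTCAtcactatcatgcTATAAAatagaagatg
Mmp14: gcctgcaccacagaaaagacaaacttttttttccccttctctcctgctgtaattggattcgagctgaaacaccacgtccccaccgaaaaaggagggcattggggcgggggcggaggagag
Timp1: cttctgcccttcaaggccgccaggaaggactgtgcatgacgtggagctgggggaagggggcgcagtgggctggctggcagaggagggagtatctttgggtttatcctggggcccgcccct

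Both motifs occurred in the windows of Mmp3 and Mmp13 and in neither of the other windows. The AP-1 motif lay at -46 to -40 from the Mmp3 start and at -35 to -29 from the Mmp13 start. In 250 bases before the start, Mmp11, Mmp14, Timp1, Timp2 and Timp3 held neither motif, and the same search found the AP-1 motif in 6.75% and the TATA motif in 12.4% of 32851 promoters. RefSeq promoters were matched by symbol for these 7 members, and Mmp2 and Mmp9 had no entry in the table used. The shared motifs of Mmp3 and Mmp13 describe sequence alone, and the classes in which the genes were highest differed, as the levels below show.

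Over all kept cells the members had 17386 UMIs, of which fibroblast-class cells held 43.1%, tumor cells 19.3%, unassigned cells 15.3% and macrophage-class cells 10.5%. Fibroblasts were only 5.93% of the cells. Timp2 had the most UMIs (4794, in 19.0% of cells), followed by Mmp14 with 3414 and Timp3 with 3116, whereas Mmp11 had 93 and Mmp9 had 214. Mmp9 was detected in cells of 4 of the 7 mice and the other 9 members in all 7.

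**Figure D1:**
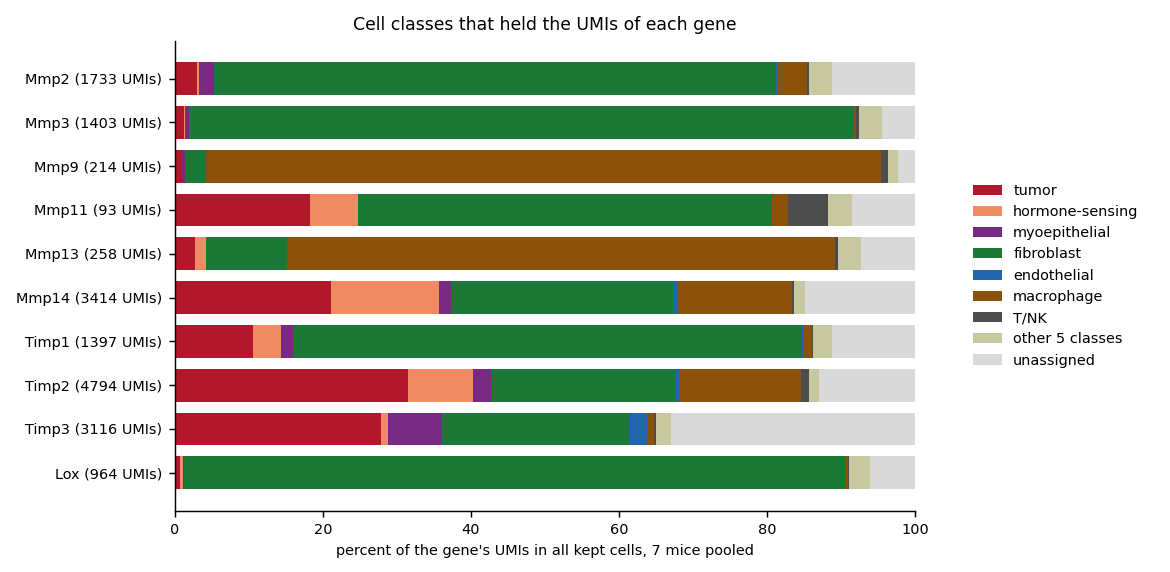
Percent of each gene's UMIs over all kept cells of the 7 mice that fell in each cell class (horizontal axis, 0 to 100%), with the gene's total UMIs beside its name. Fibroblasts held 89.8% of Mmp3 and 89.2% of Lox UMIs. Macrophage-class cells held 74.0% of Mmp13 and 91.1% of Mmp9 UMIs, and 1 cell of replicate 5 held 175 of the 214 Mmp9 UMIs. Timp2, Timp3 and Mmp14 were divided among several classes.

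The share of each gene's UMIs by class fell into 3 patterns, which are described here without a test because shares follow the number of cells captured. Lox, Mmp3, Mmp2, Timp1 and Mmp11 had most of their UMIs in fibroblasts, with 89.2%, 89.8%, 75.9%, 68.8% and 55.9%. Mmp13 and Mmp9 had most in macrophage-class cells when the mice were pooled. In replicate 8, however, macrophages held 7 and fibroblasts 18 of the 38 Mmp13 UMIs. Of the 214 Mmp9 UMIs, 175 lay in 1 cell of replicate 5, and the macrophages of the other mice had 0. Mmp14 was split among fibroblasts (30.1%), tumor cells (21.1%), macrophages (15.3%) and hormone-sensing cells (14.6%), and Timp2 was split likewise, with 31.6% in tumor cells, which also hold the most UMIs of any class. Of the Timp3 UMIs 33.0% lay in unassigned cells, the highest such share of any member.

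Fibroblasts were compared with tumor cells to ask which members were higher in cells with fibroblast markers. The study counts a cluster with high Vim, Mmp2 and Sparc among its PyMT-expressing tumor clusters. Whether the fibroblast class holds mesenchymal tumor cells was not tested. Over all cells of a class the tumor markers summed to 1268 CPM in fibroblasts, 1354 CPM in macrophages and 1369 CPM in T/NK cells. All 10 members were called higher in fibroblasts, against 12.7% of the 14130 genes tested that were called higher and 22.2% called lower in the same comparison. The median log2 fold change was 4.46 over the members and -0.41 over all genes tested. Genes entered the test by their UMIs over all sums, so a gene could enter through the class that held most of them. Of the UMIs in the sums, fibroblasts held 860 of 878 for Lox and macrophages 195 of 206 for Mmp9. The counts of members called and their medians, here and in the comparisons below, carry this limit. The calls came from edgeR's quasi-likelihood test on the sums with mouse as a block, at a Benjamini-Hochberg adjusted p under 0.05. The counts for 8 members rested on every mouse, and those for Mmp9 and Mmp13 on 2 mice each.

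Among the proteinases, Mmp2 (gelatinase A, which cleaves denatured collagen and type IV collagen) was the most abundant in fibroblasts. Its level ran from 974 to 1991 CPM over the 7 mice with a median of 1373, whereas tumor cells had 3.07 to 47.4 and a median of 5.05. The groups did not overlap, and the log2 fold change was 7.47 ± 0.30 (SE; edgeR adjusted p = 2.82e-55).

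Mmp3 (stromelysin 1, which cleaves several matrix proteins and activates other proenzymes) had 607 to 2048 CPM in fibroblasts with a median of 1170. In tumor cells it was at 0 in 4 of 7 mice and reached 11.8 CPM in replicate 8. The mean level was 1218 ± 435 CPM in fibroblasts (SD, n = 7) and 2.91 ± 4.64 in tumor cells, a log2 fold change of 8.58 ± 0.33 (SE), which was 9.50 without replicate 7. Mmp10, a close paralog that may share reads with Mmp3, had at most 3 UMIs in any class.

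Mmp14 (the membrane-type proteinase) had 880 to 1633 CPM in fibroblasts and 46.7 to 145 in tumor cells. Its means of 1164 ± 260 and 91.0 ± 33.1 CPM (SD, n = 7) differed by a log2 fold change of 3.53 ± 0.24 (SE). Mmp14 was higher in fibroblasts in 7 of 7 mice. It had UMIs in the tumor cells of every mouse, at a mean below the 148 ± 54.8 CPM (SD, n = 7) of barcodes with fewer than 200 genes, which hold free RNA and poorly captured cells.

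Mmp11 (stromelysin 3, long known from tumor stroma) was far less abundant. Its level was 13.7 to 104 CPM in fibroblasts, from 1 to 18 UMIs per mouse, and 0 to 4.48 CPM in tumor cells. Every mouse had the higher value in fibroblasts, with a log2 fold change of 4.58 ± 0.43 (SE; edgeR adjusted p = 7.32e-19).

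Mmp13 (collagenase 3) and Mmp9 (gelatinase B) were called in fibroblasts from few cells. Mmp13 was at 0 in the fibroblasts of 5 mice, at 57.2 CPM in replicate 4 and at 61.4 CPM in replicate 8, from 28 UMIs in 7 cells. Those cells carried 24 to 182 UMIs of the fibroblast markers and 0 to 3 of the macrophage markers. Mmp9 was at 35.9 CPM in replicate 2 and 23.1 CPM in replicate 7, from 6 UMIs in 2 cells, and at 0 elsewhere. The exact two-sided sign-flip test over the mice, added after the data were seen, gave p = 0.0156, the smallest it can give with 7 mice, for each of the other 8 members. It could not reach the threshold for Mmp9, which had a UMI in 2 of the fibroblast sums and not in the tumor cells of 6 mice. Nor could it for Mmp13, which had no UMI in either class in replicates 2, 3 and 5. Mmp13 was higher in the fibroblasts of replicates 4 and 8 and in the tumor cells of replicates 1 and 7. The Mmp13 log2 fold change of 4.35 ± 0.61 (SE) was 3.54 without replicate 4, 3.66 without replicate 8 and 4.99 without replicate 7, and it stayed called in each. The Mmp13 call ended under 2 of 24 alternatives, both of them this sign-flip test. The Mmp9 call also ended without the mouse block (adjusted p = 0.135), with DESeq2 (0.372) and without replicate 7 (0.24). Without replicate 5, whose macrophages held most of its UMIs, Mmp9 fell below the filter and could not be tested in fibroblasts.

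The inhibitors were higher in fibroblasts as well. Timp1, which is induced by many cytokines, had 353 to 1527 CPM with a median of 1104 in fibroblasts and 13.5 to 30.9 CPM in tumor cells, a log2 fold change of 5.41 ± 0.25 (SE). Timp2 had 1112 to 1961 CPM against 133 to 249, a log2 fold change of 2.62 ± 0.22. Timp3, which is held in the extracellular matrix, had 439 to 1316 CPM against 41.8 to 373, a log2 fold change of 2.78 ± 0.27, which was 3.41 without replicate 3. For all of these inhibitors the fibroblast values of the 7 mice lay above the tumor-cell values of the 7 mice. The share of all genes without such overlap was not taken. The tumor-cell means of 213 ± 44.4 CPM for Timp2 and 124 ± 112 CPM for Timp3 (SD, n = 7) stood beside 205 ± 59.7 and 177 ± 82.4 CPM in the barcodes with fewer than 200 genes, and the part of free RNA in them was not tested.

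Lox, the crosslinking enzyme, was also higher in fibroblasts. They had 480 to 1406 CPM with a median of 852, whereas tumor cells had 0 in 5 mice, 3.08 CPM in replicate 7 and 5.92 in replicate 8. The log2 fold change was 9.07 ± 0.34 (SE; edgeR adjusted p = 6.23e-59), and 9.94 without replicate 7. In replicates 7 and 8 the tumor-cell sums also had the highest summed fibroblast markers, at 212 and 409 CPM against 23.2 to 116 in the other 5. All 8 fibroblast markers had UMIs in tumor-cell sums. Their part in the low Lox, Mmp2 and Mmp3 values of tumor cells was not tested. A Lox UMI was found in 0.106% of tumor cells and 39.7% of fibroblasts. In the tumor-cell sums free RNA and a low level of expression cannot be told apart.

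**Figure D2:**
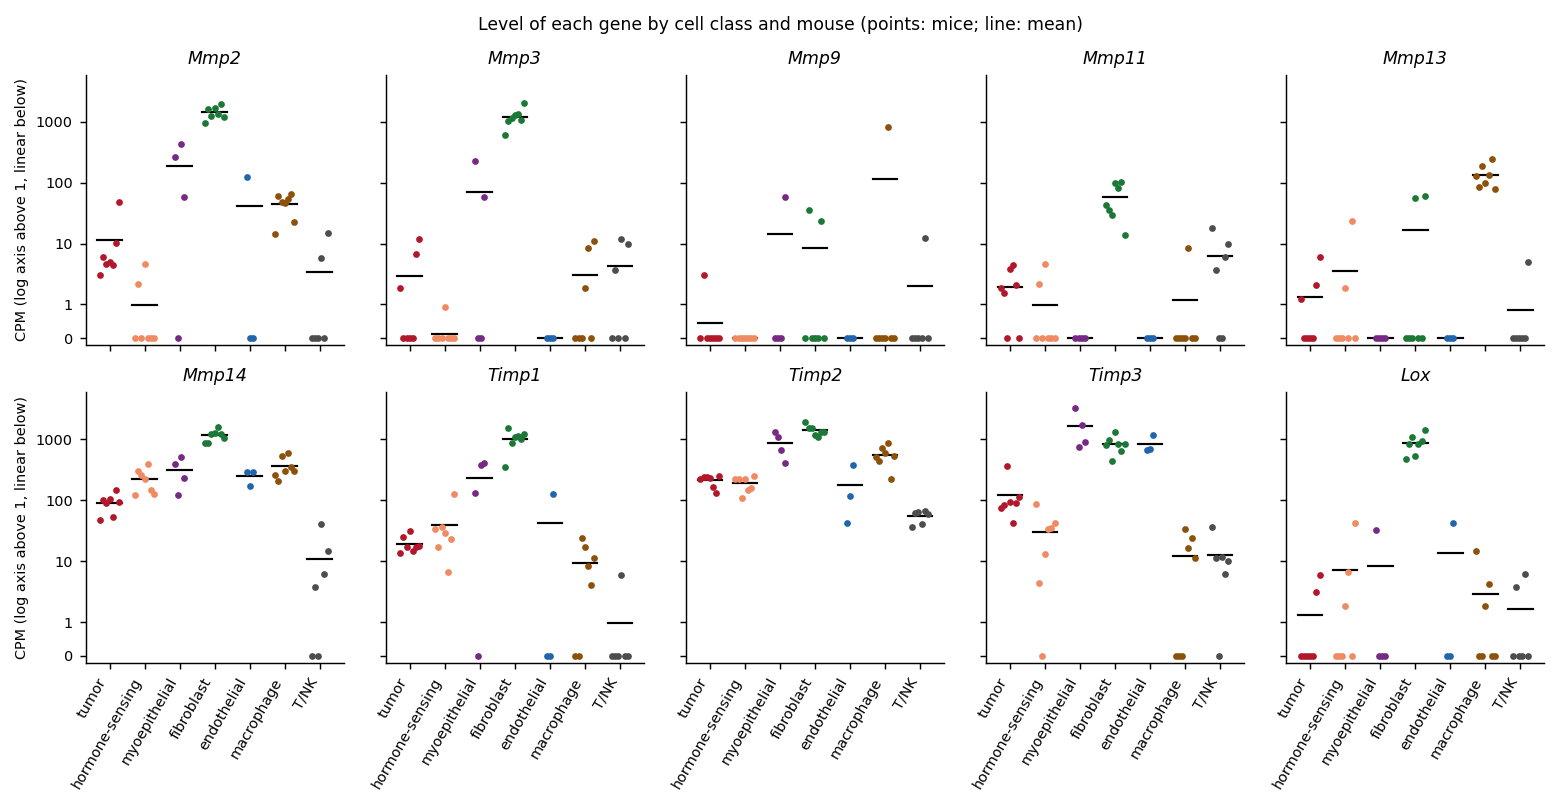
Level of each gene in CPM (vertical axis, logarithmic above 1 and linear below) in the summed cells of each class, with 1 point per mouse and a line at the mean. Fibroblast points of Mmp2, Mmp3, Mmp11, Mmp14, Timp1, Timp2, Timp3 and Lox lie above all tumor-cell points, and the 7 macrophage points of Mmp13 lie between 77.9 and 241. The share of all genes without overlap was not taken.

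Within fibroblasts the members were detected in different shares of the 892 cells. Mmp2 had a UMI in 59.5% of the cells, Timp2 in 58.6%, Mmp14 in 54.7%, Lox in 39.7%, Timp1 in 37.8%, Mmp3 in 37.2% and Timp3 in 28.5%. The corresponding shares in the 1506 T/NK cells, taken as a class not known for these genes, were 0.266%, 3.25%, 0.73%, 0.133%, 0.0664%, 0.332% and 0.664%. The median depth was 726 UMIs per fibroblast and 456 per T/NK cell. Shares depend on depth, so cells were also thinned to 300 UMIs each. At that depth Mmp2 was seen in 35.2% and Lox in 21.3% of fibroblasts, against 0.0782% and 0% of T/NK cells.

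At least 1 member was detected in all but 40 of the 892 fibroblasts. The number of members per cell moved with depth, from a median of 366 UMIs in cells with none to 1287 in cells with 5. Of the fibroblasts with Timp1, 55.5% also had Lox, against 39.7% of all fibroblasts, and of those with Mmp3, 25.3% had Timp3 against 28.5% of all. These overlaps are descriptions of pooled cells, since detection of any pair rises with the UMIs of a cell.

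Most of the other genes of the pathway that could be tested were also higher in the same comparison. The list held 46 further proteinases, inhibitors, activators and crosslinkers, of which 31 passed the filter on low counts. In fibroblasts 24 were higher, 2 were lower and 5 were not called, with a median log2 fold change of 3.43 beside -0.41 over all genes. The called genes were 77.4% and 6.45% of the list, beside 12.7% higher and 22.2% lower of all genes. The filter ran over all sums, so genes held mainly by fibroblasts could enter through them. Loxl2 had 391 UMIs in fibroblast and 11 in tumor sums, and Mmp23 had 173 and 7. The count and the median carry this limit. The collagen crosslinkers Loxl1 and Loxl2 had log2 fold changes of 7.99 ± 0.30 and 7.47 ± 0.32 (SE). Loxl1 had 664 ± 138 CPM in fibroblasts and 1.71 ± 1.55 in tumor cells (SD, n = 7). The proteoglycan-cleaving Adamts5, with 7.39, the metalloproteinase Mmp23, with 6.94, and the procollagen-processing Adamts2, with 6.81, followed. The 2 that were lower were Bsg (basigin, an inducer of metalloproteinases), with -0.67, and the membrane-type proteinase Mmp15. Mmp15 had no UMI in any fibroblast sum and 5.92 to 47.5 CPM in tumor cells, at least 7.90-fold lower when 3 counts over all fibroblast sums are taken as the floor.

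Macrophages were compared with tumor cells in the same 7 mice. By the same test 5 members were higher (Mmp2, Mmp9, Mmp13, Mmp14 and Timp2) and 1 was lower (Timp3), while 14.1% of all genes were called higher and 25.5% lower. The median log2 fold change was 1.26 over the members and -0.38 over all genes. This comparison and the others below share the tumor-cell sums with the fibroblast comparison, so they are not independent of it.

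Mmp13 was found in the macrophages of every mouse, as were Mmp2 and Mmp14. Its level was 77.9 to 241 CPM with a median of 131, from 7 to 60 UMIs per mouse, and 0 to 5.92 CPM in tumor cells. The groups did not overlap, and the log2 fold change was 6.86 ± 0.42 (SE; edgeR adjusted p = 2.47e-34). Macrophages also exceeded fibroblasts in 7 of 7 mice, where the log2 fold change of fibroblasts against macrophages was -2.51 ± 0.39. The 191 UMIs came from 114 of the 1765 macrophages, and the 31 cells with the most UMIs held at least 50% of them.

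The macrophages with an Mmp13 UMI were deeper, with a median of 791 UMIs against 564 in those without. Mmp12 (macrophage elastase) had a UMI in 38.6% of the former and 14.1% of the latter, Mmp14 in 34.2% and 19.1%, and Timp2 in 21.1% and 25.6%. The complement gene C1qa, a macrophage marker, was found in 89.5% and 86.7%. These shares are given without a test because the cells of 1 tumor are not replicates and their depth differed.

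Mmp9 was also called in macrophages, but 1 mouse decided the value. Its level was 814 CPM in replicate 5, from 195 UMIs, and 0 in the macrophages of the other 6 mice. The edgeR log2 fold change against tumor cells was 6.42 ± 0.70 (SE), and 7.47 without replicate 2. A single cell with 12340 UMIs held 175 of all 214 Mmp9 UMIs (81.8%). This cell and 3 more of replicate 5 had at least 10 UMIs each of Ctsk (cathepsin K) and Acp5 (tartrate-resistant acid phosphatase), and these 4 cells held 194 Mmp9 UMIs (90.7%). These 4 cells also had 12 to 42 UMIs of Atp6v0d2, a proton pump subunit. Among macrophage genes, Csf1r had 1 to 11 UMIs in each of them, whereas C1qa, C1qc and Mrc1 were at 0 in all. In 1 of the cells C1qb had 1 UMI and Lyz2 had 9, and both were at 0 in the others. The 4 cells were singled out after their values were seen, and are called here by Ctsk and Acp5 alone. Without them the Mmp9 level of replicate 5 was 4.76 CPM, and Mmp9 no longer reached 30 UMIs over all sums, so it could not be tested. Leaving out replicate 5 had the same effect, and with DESeq2 on all cells the log2 fold change was 1.14 (adjusted p = 0.886).

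**Figure D3:**
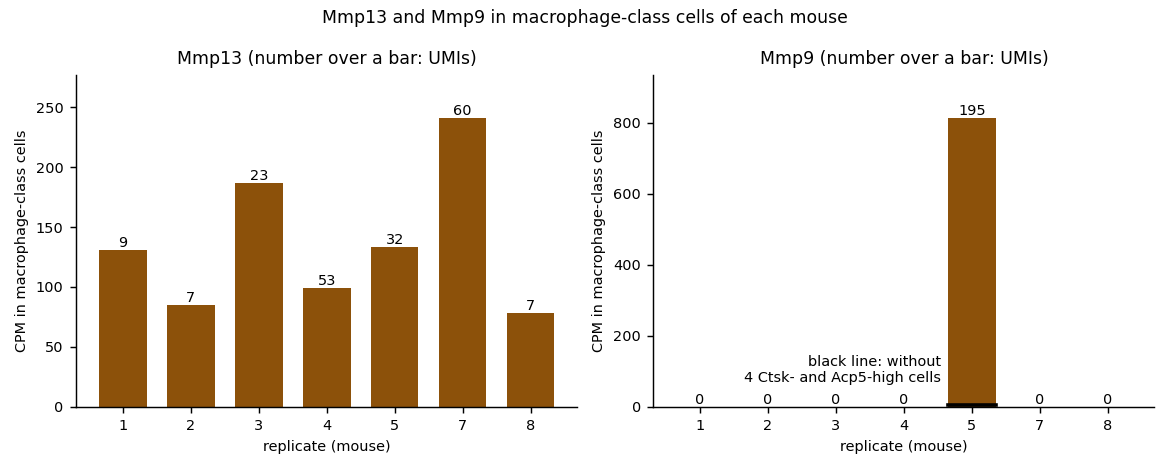
CPM of Mmp13 (left) and Mmp9 (right) in the summed macrophages of each mouse (horizontal axis, replicate), with the number of UMIs over each bar; the vertical axes start at 0 and differ. Mmp13 was found in all 7 mice, whereas the Mmp9 bar of replicate 5 reached 814 CPM and fell to 4.76 (black line) without 4 cells.

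Mmp14 and Timp2 were higher in macrophages than in tumor cells in 7 of 7 mice. Mmp14 had 207 to 601 CPM with a median of 300.5, a log2 fold change of 2.07 ± 0.24 (SE). Timp2 had 225 to 876 CPM with a median of 534, a log2 fold change of 1.5 ± 0.22. Timp3 went the other way, with 0 to 33.6 CPM in macrophages and a lower value than tumor cells in 7 of 7 mice, a log2 fold change of -2.43 ± 0.39. It was -1.76 without replicate 3 and -3.04 without replicate 4.

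Mmp2 had 14.5 to 64.4 CPM in macrophages, higher than in tumor cells in 6 of 7 mice, with a log2 fold change of 2.76 ± 0.37 (SE). The mean was 44.5 ± 19.0 CPM in macrophages and 51.3 ± 45.0 CPM in barcodes with fewer than 200 genes (SD, n = 7). Macrophages had 68 UMIs of Mmp2, 4 of Mmp3 and 3 of Lox, against 1316, 1260 and 860 in fibroblasts and 137, 154 and 78 in the barcodes under 200 genes. All 8 fibroblast markers had UMIs in macrophages, with a summed level of 24.3 to 679 CPM against 49767 to 59163 CPM in fibroblasts. Their part in the Mmp2 level was not tested.

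The myoepithelial cells, the contractile basal layer of the mammary gland, gave sums of 12 to 24 cells in 4 mice. The contractile genes Acta2, Mylk, Cnn1 and Myh11, not used for the assignment, each had UMIs in only 3 of these sums. The epithelial genes Krt8, Krt18 and Epcam reached up to 2135, 3424 and 3263 CPM in a sum. Over all cells of the class the tumor markers summed to 9185 CPM and the myoepithelial markers to 6537 CPM. The part of tumor cells in these sums was not tested. By edgeR 5 members were higher than in tumor cells and 0 lower, also 0 at an unadjusted p under 0.05 and by DESeq2, while 2.31% of all genes were called higher and 5.71% lower. The median log2 fold change was 2.43 over the members, of which Mmp11 and Mmp13 had no UMI in these sums, and -1.0 over all genes. Of the called genes 28.8% were higher with the scaling factors used and 81.5% without them.

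Timp3 was the leading member of myoepithelial cells. It had 3275 CPM in replicate 1, 765 in replicate 3, 1747 in replicate 4 and 924 in replicate 5, each above the tumor cells of the same mouse, with a log2 fold change of 2.98 ± 0.34 (SE; edgeR adjusted p = 4.68e-13). Without replicate 1 it was 2.25 and without replicate 3 it was 3.68. A Timp3 UMI was seen in 55.3% of myoepithelial cells, and in 40.7% at 300 UMIs per cell, against 7.95% and 2.96% of tumor cells. Timp2 had 1343, 1088, 682 and 404 CPM in the same order and a log2 fold change of 1.32 ± 0.30, again higher in 4 of 4 mice.

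Mmp2, Mmp3 and Timp1 were also called in myoepithelial cells but not in each mouse. Mmp2 had 262, 0, 426 and 57.7 CPM in replicates 1, 3, 4 and 5, with a log2 fold change of 4.21 ± 0.58 (SE). Mmp3 had 229, 0, 0 and 57.7 CPM, with 4.50 ± 0.87, and 7 of its 8 UMIs came from replicate 1. Without replicate 7 the value of Mmp3 was 5.31. Timp1 had 131, 0, 383 and 404 CPM, with 2.73 ± 0.50. In replicate 1 the fibroblast markers summed to 16672 CPM in the myoepithelial sum, against 40.3 to 895 in the other 3. The Mmp2 call ended under 3 of 22 alternatives, the Mmp3 call under 5 of 21, the Timp1 call under 2 of 22 and the Timp2 call under 5 of 22. Several of these alternatives left 1 or 2 myoepithelial sums. With 2 sums, at a marker share of at least 0.8, the log2 fold change was 3.03 for Mmp2 (edgeR adjusted p = 0.286), 4.2 for Mmp3 (0.29) and 0.38 for Timp2 (0.682). Without replicate 1 the calls of Mmp3 (log2 fold change 1.99, edgeR adjusted p = 0.597) and Timp2 (1.02, 0.0856) ended. When each marker list lost its most abundant gene, the values of Mmp3 and Timp1 turned to -2.19 and -5.03 and were not called.

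Endothelial cells formed sums of 22 to 38 cells in 3 mice. By edgeR 1 member, Timp3, was higher than in tumor cells and 0 were lower, against 1 lower at an unadjusted p under 0.05 and 1 by DESeq2, with 2.85% of all genes called higher and 8.51% lower. The median log2 fold change was -0.69 over the members and -1.58 over all genes. The former rests on fitted values of 4 members without a UMI in these sums and was 1.01 over the other 6, a choice that favours higher values, so it gives no direction. Of the called genes 25.0% were higher with the scaling factors used and 72.0% without them. Timp3 had 672 CPM in replicate 4, 696 in replicate 5 and 1167 in replicate 8, against 92.8, 41.8 and 113 in the tumor cells of the same mice, a log2 fold change of 1.96 ± 0.43 (SE; edgeR adjusted p = 0.000316). The call ended with DESeq2 on the 3 sums (log2 fold change 1.41, adjusted p = 0.128). It also ended with cells of at least 500 genes (2.42, 0.153) and in the CB mice alone (1.03, 0.535), each of which left 1 endothelial sum whose spread was assumed to be that of the other classes. The markers of pericytes, the mural cells around endothelium, summed to 210 to 500 CPM in endothelial sums and 3.47 to 35.5 CPM in tumor sums, with 4 of 9 detected and Cspg4, Notch3, Abcc9, Higd1b and Ndufa4l2 at 0. Their part in Timp3 was not tested. The 14 cells classed as pericytes had 27 Timp3 UMIs, or 3139 CPM pooled over mice.

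Mmp14 had 294, 174 and 292 CPM in the endothelial cells of these mice and was not called (log2 fold change 0.46 ± 0.49). Mmp3, Mmp9, Mmp11 and Mmp13 had no UMI in endothelial sums. The 3 sums held 17233 to 24003 UMIs each, so a count of 0 in a sum allows a level of up to 125 to 174 CPM by counting error.

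Hormone-sensing cells, the epithelial cells with estrogen and progesterone receptors, were compared with tumor cells in 7 mice. By the test 1 member was higher and 1 lower, while 7.59% of all genes were called higher and 13.1% lower, and without scaling factors the higher share of called genes went from 36.7% to 53.4%. Mmp14 had 120 to 397 CPM with a median of 221, above the tumor cells of the same mouse in 7 of 7, with a log2 fold change of 1.17 ± 0.24 (SE; edgeR adjusted p = 4.29e-05). A UMI of Mmp14 was found in 29.8% of hormone-sensing and 9.9% of tumor cells, and in 7.57% and 2.78% at 300 UMIs per cell. Mmp14 is a gene that fibroblasts express. The fibroblast markers summed to 220 to 1520 CPM in hormone-sensing sums, with Pdgfra at 0, and to 23.2 to 409 CPM in tumor sums. The ranges overlapped. Within each mouse the hormone-sensing sum was the higher, with 220 against 212 CPM in replicate 7. Mmp2, Mmp3 and Lox had means of 0.97, 0.132 and 7.18 CPM in the same hormone-sensing sums. The part of fibroblast RNA in the Mmp14 level of these sums was not tested.

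Timp3 was lower in hormone-sensing cells in 6 of 7 mice, with 0 to 85.8 CPM and a median of 33.6 against a tumor-cell median of 91.2. The log2 fold change was -2.94 ± 0.40 (SE; edgeR adjusted p = 4.05e-10), and -2.30 without replicate 3. With cells classed from Seurat clusters it was -0.81 (adjusted p = 0.0899), and in the WT mice alone neither this call (log2 fold change -1.37, adjusted p = 0.113) nor that of Mmp14 (0.92, 0.133) held.

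T/NK cells were compared with tumor cells in 6 mice. By edgeR 0 members were higher than in tumor cells, also 0 at an unadjusted p under 0.05 and by DESeq2, and 4 were lower, beside 12.6% of all genes called higher and 27% lower. Timp2 was the most abundant member there, with 36.2 to 67.5 CPM in 6 mice, a log2 fold change of -1.96 ± 0.30 (SE). Mmp14, Timp1 and Timp3 had log2 fold changes of -2.90 ± 0.43, -3.91 ± 0.83 and -3.27 ± 0.49, each lower in 6 of 6 mice. Without replicate 4, which held 7 of the 12 Mmp14 UMIs and the 1 Timp1 UMI of T/NK cells, the values of Mmp14 and Timp1 were -3.67 and -5.42. The other members had 0 to 18.1 CPM in any T/NK sum.

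**Figure D4:**
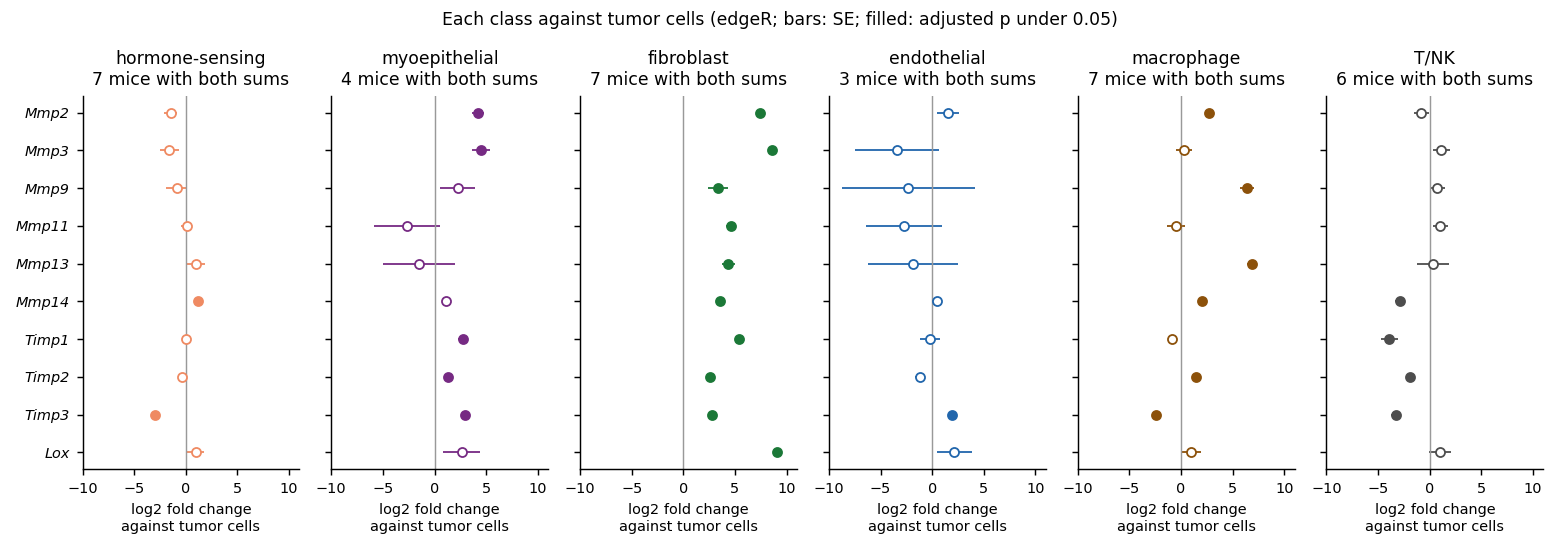
Log2 fold change of each gene in 6 classes against tumor cells (horizontal axis; bars, SE from edgeR; filled points, adjusted p under 0.05). Filled points cover all 10 genes in fibroblasts, 6 in macrophages, 5 in myoepithelial cells, 4 in T/NK cells, 2 in hormone-sensing cells and 1 in endothelial cells, and wide bars mark genes with no UMI in a class.

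The order of the levels over the classes was read from all 21 pairs of classes in the same fit. In the 15 pairs without tumor cells 2.43% to 34.9% of all genes were called in either direction. For Mmp2, fibroblasts (mean 1445 CPM) stood above myoepithelial cells (186), which stood above macrophages (44.5) by a log2 fold change of 1.45 ± 0.51 (SE; edgeR adjusted p = 0.0387). Myoepithelial cells had the higher Mmp2 value in 3 of 4 mice, with 0 against 48.7 CPM in replicate 3, and 1 of the 3 was replicate 1 with its 16672 CPM of fibroblast markers. Endothelial cells (42) differed neither from myoepithelial cells nor from macrophages by this test. For Timp2, myoepithelial cells (879) were below fibroblasts (1434), with a log2 fold change of -1.30 ± 0.30, and were not called different from macrophages (560), with -0.18. This sign is opposite to that of the means, which are not scaled. The scaling factors were 1.31 to 1.56 for myoepithelial and 0.628 to 0.958 for macrophage sums. In unscaled CPM myoepithelial cells were higher in replicates 1, 3 and 4 and lower in replicate 5.

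For Timp3, myoepithelial (1678), endothelial (845) and fibroblast cells (841) were not called different from each other, with log2 fold changes of 1.02 for myoepithelial against endothelial and 0.20 for myoepithelial against fibroblast cells. All of them exceeded macrophages (12.2) by 4.38 to 5.41. For Timp1, myoepithelial cells (230) were below fibroblasts (1031), with -2.67 ± 0.39, and above endothelial cells (41.7), with 2.94 ± 0.84. For Mmp14, fibroblasts (1164) exceeded macrophages (366) by 1.46 ± 0.23, and hormone-sensing cells (225) were below macrophages, with -0.90 ± 0.24. Myoepithelial cells (314) were called different neither from macrophages nor from hormone-sensing cells. Mmp2, Mmp3, Mmp11, Mmp14, Timp1, Timp2 and Lox were called higher in fibroblasts than in each of the other 6 classes, whereas Mmp9, Mmp13 and Timp3 were not. In the pairs of fibroblasts with classes other than tumor cells, 7.08% to 33.9% of all genes were called in either direction. The share of all genes called higher in all 6 was not taken, so the list of members is a description.

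The balance of inhibitors and proteinases was described by the UMIs of Timp1, Timp2 and Timp3 together divided by those of the 6 Mmp genes. Capture may differ between genes, so the ratio compares classes and is no ratio of molecules. Fibroblasts had the lowest median ratio, 0.784, with a range of 0.687 to 1.25 over 7 mice, from 3306 ± 418 CPM of inhibitors and 3911 ± 712 CPM of proteinases (SD). Tumor cells had a median of 3.19 and a range of 1.45 to 6.54, which did not overlap the fibroblast range. Timp2 and Timp3 in tumor cells were near their level in barcodes with fewer than 200 genes, and the part of free RNA in this ratio was not tested. Hormone-sensing cells (median 1.14, range 0.475 to 3.33) and macrophages (median 1.28, range 0.382 to 1.43) overlapped fibroblasts. Myoepithelial cells had a median of 4.83 and a range of 3 to 15.3 over 4 mice, and endothelial cells a median of 4.67 over 3 mice. In macrophages the ratio of replicate 5, 0.557, included the Mmp9 of 4 cells. Mmp genes outside the 6 were not counted. Mmp12 had a mean of 739 ± 532 CPM in macrophages (SD, n = 7), beside 668 ± 447 CPM of the 6 together. In fibroblasts Mmp19 and Mmp23 had means of 180 and 191 CPM. The order of fibroblasts and macrophages therefore holds for these 6 genes only. These ratios were not tested.

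**Figure D5:**
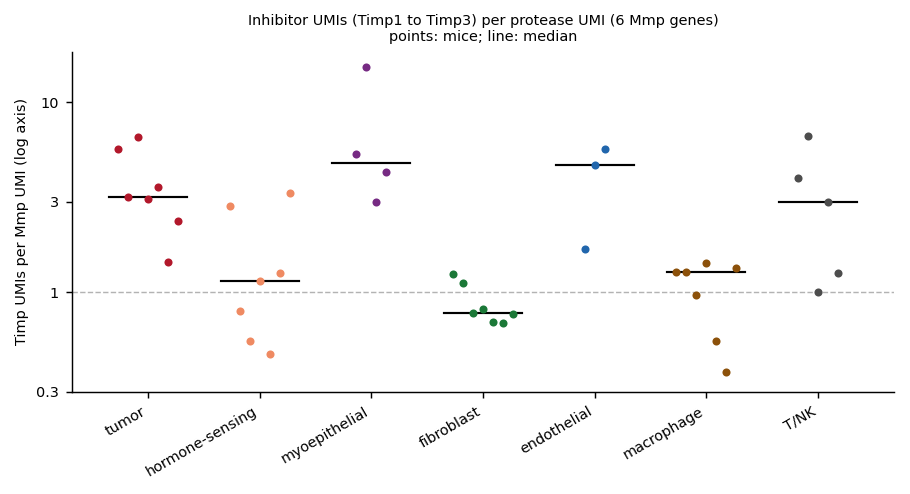
UMIs of Timp1, Timp2 and Timp3 per UMI of the 6 Mmp genes (vertical axis, logarithmic) in each class, with 1 point per mouse and a line at the median. The 7 fibroblast points lie between 0.687 and 1.25 and the 7 tumor-cell points between 1.45 and 6.54; 1 T/NK sum without an Mmp UMI is not drawn.

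Across the 41 sums of mouse and class, the genes whose levels ran most like each member were taken as the 3 with the highest Pearson r of log2(CPM + 10). These correlations are descriptions over sums that share mice and class identity. Mmp3 ran with Col5a1 (a fibrillar collagen chain, r = 0.989), Mmp23 (0.976) and Srpx (0.974), and Lox with Fbln1 (0.968), which is one of the fibroblast markers, Lama2 and Fibin. Mmp2 ran with Clmp (0.941), Serpinf1 and Emilin1, and Timp1 with Adamts2 (0.919), Loxl2 and Angptl2. Mmp13 ran with Csf1r (0.928), the receptor of macrophage colony-stimulating factor and a macrophage marker, Mpeg1 and Clec4a2. Mmp14 had weaker matches in Anxa5 (0.865), Cd63 and Ctsl, and so had Timp2 in Cxcl14 (0.853), Gsn and Pdpn. Timp3 ran with Cald1 (0.909), Serpinh1 and Col4a1. The highest r of Mmp9 was 0.817, with Slc9b2, and rested on replicate 5.

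Among the members, Mmp3 and Lox had the highest r over the 41 sums (0.937), and Mmp2 and Mmp3 had 0.887. Mmp13 had -0.03 with Mmp3 and 0.17 with Mmp9, although Mmp13 and Mmp9 were both called in macrophages.

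Of the other pathway genes, 13 of 31 were higher in macrophages than in tumor cells and 4 were lower, with a median log2 fold change of 0.44. These were 41.9% and 12.9% of the list, beside 14.1% and 25.5% of all genes. Mmp12 was among the higher genes, at 167 to 1523 CPM in macrophages and 0 to 5.92 in tumor cells, a log2 fold change of 7.93, and it was named after its values were seen. In myoepithelial cells 5 were higher and 1 lower (16.1% and 3.23%, beside 2.31% and 5.71% of all genes), and in endothelial cells 7 and 3 (22.6% and 9.68%, beside 2.85% and 8.51%). In hormone-sensing cells 4 were higher and 4 lower (12.9% each, beside 7.59% and 13.1%), and in T/NK cells 1 and 9 (3.23% and 29.0%, beside 12.6% and 27%). The lower shares in hormone-sensing and T/NK cells lay near those of all genes.

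Levels were also taken over whole tumors, that is all kept cells of a mouse. Replicate 8 had 321 fibroblasts among 1133 cells (28.3%), against 2.16% to 6.93% in the other 6 mice. In the same mouse Mmp3 was at 718 CPM, against 23.7 to 69.3 in the others, and Lox at 491 against 15.5 to 60.7. Within fibroblasts the difference was smaller, with 2048 CPM of Mmp3 in replicate 8 against 607 to 1325 in the others. Timp2 spanned 212 to 690 CPM and Mmp14 94.0 to 481 CPM over the 7 mice.

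The mice of the CB and WT title series were compared over whole tumors with a two-sided exact permutation test on log2(CPM + 10). Mmp3 and Lox were lower in the 4 CB mice with an exact permutation p of 0.0286, the smallest it can give with 4 against 3 mice, and the Benjamini-Hochberg adjusted p over the 10 members was 0.143 or more for every member. The labels do not say what the titles stand for, and replicate 8 with its fibroblast share belongs to the WT mice. Fibroblasts held 5.02%, 5.72% and 30.4% of the UMIs in replicates 5, 7 and 8, against 2.42% to 3.91% in the CB mice. As shares of cells the series overlapped, with 3.29% in replicate 5 and 4.10% in replicate 4. The part of fibroblast content in the difference was not tested.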

How the data were processed

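Drop-seq libraries of dissociated mammary tumors from 7 control mice were analysed. The authors deposited 1 matrix of UMI counts per gene and barcode for each library, with no normalization. The study's methods give alignment to mm10 with the PyMT sequence added, whereas the submitters' processing notes name STAR and FastQC without versions and the human builds GRCh37.p13 and hg19, and the matrices hold mouse symbols. Versions of the upstream tools are not given in the sources used here. Barcodes with 200 to 6000 genes were kept after mitochondrial genes were dropped, and no doublet caller was run.

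A cell joined a class when that marker list took at least 0.6 of its scaled marker score and at least 2 genes of the list were present. Between 7.4% and 17.6% of the cells of the 7 classes lay within 0.1 above this limit. UMIs were summed per mouse and class (at least 10 cells), since cells of 1 tumor are not replicates. The 41 sums entered 1 edgeR 4.0.16 quasi-likelihood fit (TMM factors, mouse as block, genes with at least 30 UMIs, Benjamini-Hochberg within each contrast, threshold 0.05), run in R 4.3.3. SE is the log2 fold change divided by the square root of F. TMM factors of sums and other settings were varied (DESeq2 1.42.0, Seurat 5.3.0 clusters with 20 principal components and resolution 0.6, other filters, single title series, each mouse left out). The test of fibroblasts against tumor cells was run on simulated counts with 1 dispersion for all genes and no other class or mouse effects. It recovered 9 of 50 genes changed 2-fold, 38 of 50 at 4-fold, 50 of 50 at 8-fold and 11 of 50 at 0.5-fold. Of 13951 unchanged genes 8 were called. The classes with fewer sums were not simulated. Sums of 1 mouse are paired because they come from the same animal. Each sum held 15346 to 1950923 UMIs, and floors and intervals cover counting error only. The 10 members, the marker lists and the pathway list were chosen with earlier results of these data known. The genes named are the members, the 5 pathway genes with the largest absolute log2 fold change among those called in fibroblasts, the 3 genes most like each member with at least 100 UMIs in the sums, and any others said to be chosen after their values were seen. Sequences are from RefSeq and gene positions from GENCODE M21, both on GRCm38. The smallest p of 4 against 3 mice is 1 of 35 arrangements.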

Additional observations from a re-analysis of the deposited data

Results flagged for a closer look

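In 18 of 57 groups of 4 to 7 mice, 1 mouse lay far from the others by Dixon's criterion, where chance alone flags about 1 in 20. Many of these groups hold values of 0 in most mice, so that 1 to 3 UMIs are enough.

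Mmp9 in macrophages stood apart with 814 CPM in replicate 5 from 195 UMIs and 0 in the other 6 mice. In the same mouse Mmp9 also stood apart in T/NK cells (12.3 CPM, 2 UMIs) and in myoepithelial cells (57.7 CPM, 1 UMI), and Mmp11 stood apart in macrophages (8.35 CPM, 2 UMIs). Timp3 in tumor cells reached 373 CPM in replicate 3 from 322 UMIs, against at most 113 in the other 6 mice.

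In replicate 8, the mouse with 28.3% fibroblasts, 4 values stood apart. These were Mmp2 (47.4 CPM, 8 UMIs) and Mmp13 (5.92 CPM, 1 UMI) in tumor cells, and Timp1 (125 CPM, 3 UMIs) and Lox (41.7 CPM, 1 UMI) in hormone-sensing cells. In replicate 4, Mmp14 (41.0 CPM, 7 UMIs) and Timp1 (5.86 CPM, 1 UMI) stood apart in T/NK cells and Mmp3 (0.925 CPM, 1 UMI) in hormone-sensing cells. In replicate 7, Mmp13 stood apart in hormone-sensing cells (23.1 CPM, 2 UMIs) and T/NK cells (4.97 CPM, 1 UMI). In replicate 1, Timp3 in T/NK cells was at 36.2 CPM (2 UMIs), Lox in myoepithelial cells at 32.8 CPM (1 UMI) and Lox in macrophages at 14.5 CPM (1 UMI). Mmp9 in tumor cells was at 3.06 CPM in replicate 2 from 2 UMIs.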

How the results depend on the processing

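Of the 28 calls of a member against tumor cells, 18 kept their direction and stayed called under every alternative that gave a value, and 10 did not under at least 1 of up to 24 settings. Of 624 values, 595 kept both, 27 lost the call and 2 changed sign. The 2 were Mmp3 (-2.19) and Timp1 (-5.03) in myoepithelial cells when each marker list lost its most abundant gene.

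Without the replicate block, 9 members instead of 10 were higher in fibroblasts (Mmp9 lost its call, with a log2 fold change of 3.40), no other member call changed, and 4444 instead of 4929 genes were called there. The number of members higher in myoepithelial cells was 2 at a share of at least 0.8, 1 for lists without their most abundant gene and 2 in the WT mice alone (2, 2 and 1 myoepithelial sums). In hormone-sensing cells 0 members were lower with Seurat clusters, 0 in the WT mice alone and 2 with DESeq2, and 0 were higher in the WT mice alone. In endothelial cells 0 were higher with at least 500 genes per cell, 0 in the CB mice alone (1 sum each) and 0 with DESeq2 (3 sums), and 1 was lower with DESeq2 and 1 with lists without their most abundant gene.

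Genes called of all tested in fibroblasts were 2782 with filterByExpr, 3154 in the CB mice and 2354 in the WT mice. In the same order of filterByExpr and WT mice they were 2992 and 2864 in macrophages (all mice, 5593), 3130 and 2657 in T/NK cells (5589), and 1776 and 765 in hormone-sensing cells (2924). In myoepithelial cells (1134) they were 475 at a share of 0.8, 263 without the most abundant markers, 2196 with Seurat clusters, 300 with at least 20 cells per sum (1 sum), 726 with filterByExpr, 116 in the WT mice, 588 without TMM factors, 2148 with DESeq2 and 642 with both classes alone. In endothelial cells (1605) they were 208 with at least 500 genes per cell, 356 in the CB mice, 706 in the WT mice, 871 without TMM factors and 991 with both classes alone. A class with 1 sum was assumed to vary like the other classes, and its lost calls say nothing of stability. filterByExpr and single series test fewer genes or samples by construction, and for the other settings the cause was not tested.

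Leaving out 1 mouse at a time gave 3931 to 4728 genes called in fibroblasts, 4513 to 5576 in macrophages, 4576 to 5593 in T/NK cells, 2034 to 2924 in hormone-sensing cells, 571 to 1622 in myoepithelial cells and 780 to 1662 in endothelial cells. Members higher ran from 9 to 10 in fibroblasts, 4 to 6 in macrophages and 3 to 6 in myoepithelial cells, and members lower in endothelial cells from 0 to 1. Without TMM factors the median log2 fold change of all genes moved from -1.58 to -0.76 in endothelial, from -1.0 to -0.31 in myoepithelial and from -0.18 to 0.02 in hormone-sensing cells. With all mice and cells no member fell below the filter of 30 UMIs, so the sign-flip test planned for such members and its pseudocount of 1 CPM had no value. The settings without TMM factors, with TMMwsp factors, without the 4 cells rich in Ctsk and Acp5, and the sign-flip test in fibroblasts were chosen after seeing the data. Depth limits the endothelial and myoepithelial sums most.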

Other observations

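Other genes of the pathway list also differed between classes and tumor cells, and those named here were chosen after their values were seen. Several of them (Plat, Mmp19 and Adam19) had their highest mean level in fibroblasts. In macrophages the urokinase gene Plau and its receptor Plaur were higher than in tumor cells, with log2 fold changes of 4.58 and 3.07, as were the sheddase Adam8 (5.42) and the proteinase Mmp19 (5.13). In endothelial cells the tissue plasminogen activator Plat (4.59) was higher, together with Adamts1 (2.93), Adamts4 (5.49) and Adamts9 (4.87). In hormone-sensing cells Adam10 (2.22) and Adam8 (2.07) were higher, and Adamts10 (-3.44), Adamts1 (-2.61) and Adamts4 (-2.46) were lower. Adamts4 was near 0 in both classes, with 20 UMIs in the tumor cells of 3 mice and 1 UMI in hormone-sensing cells. In T/NK cells Adam19 (5.13) was the 1 gene that was higher, whereas Plau (-2.02) and Plaur (-2.37) were lower. All of these are edgeR calls at an adjusted p under 0.05.

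Some members had UMIs in cells outside the 7 classes compared. The 14 cells classed as neutrophils had 3 Mmp9 UMIs, or 486 CPM pooled over mice. The 14 cells classed as pericytes had 3 Mmp11 UMIs, or 349 CPM pooled, beside their 27 Timp3 UMIs. Cells classed as erythroid had 55 Mmp2, 43 Mmp3 and 26 Lox UMIs, with 338, 264 and 160 CPM pooled, and 117 of these 203 cells came from replicate 8. Unassigned cells had 1027 Timp3 UMIs, or 383 CPM pooled, above the 116 CPM of tumor cells pooled in the same way.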
